A study of Mus musculus with 31 samples.

Results

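The nuclear-encoded subunits of the oxidative phosphorylation system were followed in regulatory T cells (Tregs) from 10 combinations of tissue and genotype. The members were the protein-coding genes whose symbols begin with Ndufa, Ndufb, Ndufc, Ndufs or Ndufv and a digit (complex I), equal Sdha, Sdhb, Sdhc or Sdhd (complex II), or begin with Uqcr (complex III), with Cox4, Cox5, Cox6, Cox7 or Cox8 (complex IV) or with Atp5 (complex V). The rule used names and no measured value. It found 83 of the 24594 genes in the count table: 37 of complex I, 4 of complex II, 8 of complex III, 17 of complex IV and 17 of complex V. They lie on 19 chromosomes. A few symbols reach beyond the subunits proper. Cox7a2l encodes a factor that joins complexes III and IV into supercomplexes, Atp5sl (now Dmac2) helps to assemble the membrane arm of complex I, Atp5s is related to it, and the Ndufa4 protein is now assigned to complex IV. In all counts by complex below, these genes stay in the complex that their symbol gives.

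Oxidative phosphorylation makes ATP in the inner mitochondrial membrane. Complexes I and II take electrons from NADH and succinate, complex III passes them from ubiquinol to cytochrome c, complex IV passes them to oxygen, and complex V, the ATP synthase, is driven by the proton gradient that complexes I, III and IV build. Complex II, which is also the succinate dehydrogenase of the citrate cycle, is made only of nuclear-encoded proteins, whereas the others also hold subunits encoded by mitochondrial DNA. Tregs are known to depend on mitochondrial respiration for their suppressive function.

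The Tregs were sorted by flow cytometry as live CD45+ CD3+ CD4+ CD8- CD25+ cells, without a gate on FOXP3, from mice of the FVB/N background. Tumor-bearing KEP mice were K14cre;Cdh1F/F;Trp53F/F, in which the keratin 14 promoter drives Cre and so deletes E-cadherin and p53 in epithelium, and carried mammary tumors of 225 mm2. Wild-type (WT) mice were littermates with the same floxed alleles and no Cre (wt;Cdh1F/F;Trp53F/F), so that the T cells of both genotypes carry the floxed genes. A KEP library held the cells of 1 mouse, whereas cells of 3 mice were pooled for a WT library. There were 3 libraries each of KEP and WT blood, spleen and lung, of KEP tumor-draining lymph node, of WT lymph node and of KEP tumor, and 4 of WT mammary gland. Sample titles carry dates, and no date was shared by the genotypes, so a date effect and a genotype effect cannot be told apart. The titles also end in index letters. Those of KEP tumor, KEP blood and WT mammary gland replicate 4 repeat those of WT spleen, WT lymph node and WT mammary gland replicate 1. The titles do not say which libraries were sequenced together, and an effect of this was not tested.

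Cells sorted per library numbered 70000 in every spleen, 9000 to 30000 in WT blood and 17000 to 70000 in KEP blood. They numbered 30000 to 70000 over the lung libraries and in tumor, and 4500 to 30000 in mammary gland. Input thus varied with tissue and, in blood, with genotype, and its part in the results was not tested. Depth was 8154765 to 15258958 counts per library, and the members took 0.474 to 0.956% of the counts. The summed level of 10 pan-T genes was 4866 to 6058 CPM (library-scaled counts, with TMM factors) in the 24 libraries from tissues other than mammary gland and tumor. It was 169 to 1936 in the 4 mammary gland libraries and 1845 to 6103 in the 3 tumor libraries. Summed Treg markers were 3483 to 7516 CPM in the 24 libraries, 165.5 to 2651 in mammary gland and 3381 to 10250 in tumor. The 7 epithelial genes summed to 4422 to 5770 CPM in mammary gland, 158 to 2118 in tumor and 5.77 to 43.4 elsewhere. The mammary gland libraries thus hold little T cell RNA and go against their label, and tumor replicate 3 held the most epithelial and milk RNA of the tumors. In bulk samples, fewer cells of a type and less RNA per cell cannot be told apart.

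Promoters are shown first, since a long-known feature of these genes is that sites for the factors NRF1, GABP (of the ETS family) and YY1 lie close to many of their start sites. RefSeq (GRCm38.p6) gave a window of 300 bases, from 250 before to 50 after the start, for 69 of the 83 members. On either strand, the ETS letters CCGGAAG were found in 15 windows (21.7%, against 9.1% of 27025 genes), the NRF1 letters GCATGCG in 10 (14.5% against 3.6%) and the YY1 letters AAGATGG in 11 (15.9% against 6.5%). No member's window held both the ETS letters and the YY1 letters, which could overlap by AAG, and 31 windows held at least 1 of the 3 motifs. A match describes the letters and not a bound site. The stretches below lie upstream of the start on the strand of the gene, which is the minus strand for each, with the motif in capitals. They are shown as examples from complexes I, II and III whose levels are described further on.
Ndufa6 promoter, chr15:82354323-82354402: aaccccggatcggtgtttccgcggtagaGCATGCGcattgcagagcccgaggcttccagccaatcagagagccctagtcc
Sdhd promoter, chr9:50603850-50603909: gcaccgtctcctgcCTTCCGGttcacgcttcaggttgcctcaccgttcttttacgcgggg
Uqcr11 promoter, chr10:80406831-80406910: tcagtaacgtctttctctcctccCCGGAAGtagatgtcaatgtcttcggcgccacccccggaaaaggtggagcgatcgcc
In Ndufa6 the capitals are the NRF1 letters. In Sdhd they are the ETS letters read on the opposite strand, and in Uqcr11 they are the ETS letters.

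The subunits were expressed throughout, within narrow limits. In the fit of the 24 libraries, 77 members passed the filter on low counts, with mean levels from 1.17 CPM for Cox6b2 to 649.5 CPM for Atp5b. The 6 that did not pass were Cox4i2, Cox6a2, Cox7a1, Cox7b2, Cox8b and Ndufa4l2. The highest of the 8 group means was a median of 1.34 times the lowest, and this ratio was under 1.5 for 61 of the 77. By complex the median ratio was 1.32 (I), 1.28 (II), 1.43 (III), 1.26 (IV) and 1.42 (V).

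Per kilobase of transcript, which allows genes to be compared, the median level over the 24 libraries was 43 CPM per kb for complex I, 71.2 for complex II, 71.1 for complex III, 114 for complex IV and 92.2 for complex V. Among the genes grouped by symbol in complex I, the highest was Ndufa4, whose protein is now assigned to complex IV, at 109.5 CPM per kb. The lowest was Ndufc1, a small membrane-arm subunit, at 8.68. In complex II, Sdhb, the iron-sulfur subunit, was highest at 87.3 and Sdhc, a membrane anchor, lowest at 18.8. In complex III, the hinge protein gene Uqcrh reached 232 CPM per kb and Uqcrfs1, which encodes the Rieske iron-sulfur protein, 47.3. In complex IV, Cox4i1 stood at 263 and Cox6b2 at 2.51. In complex V, Atp5b, the catalytic beta subunit, was highest at 339 CPM per kb and Atp5s, grouped here by symbol, lowest at 1.54.

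**Figure D1:**
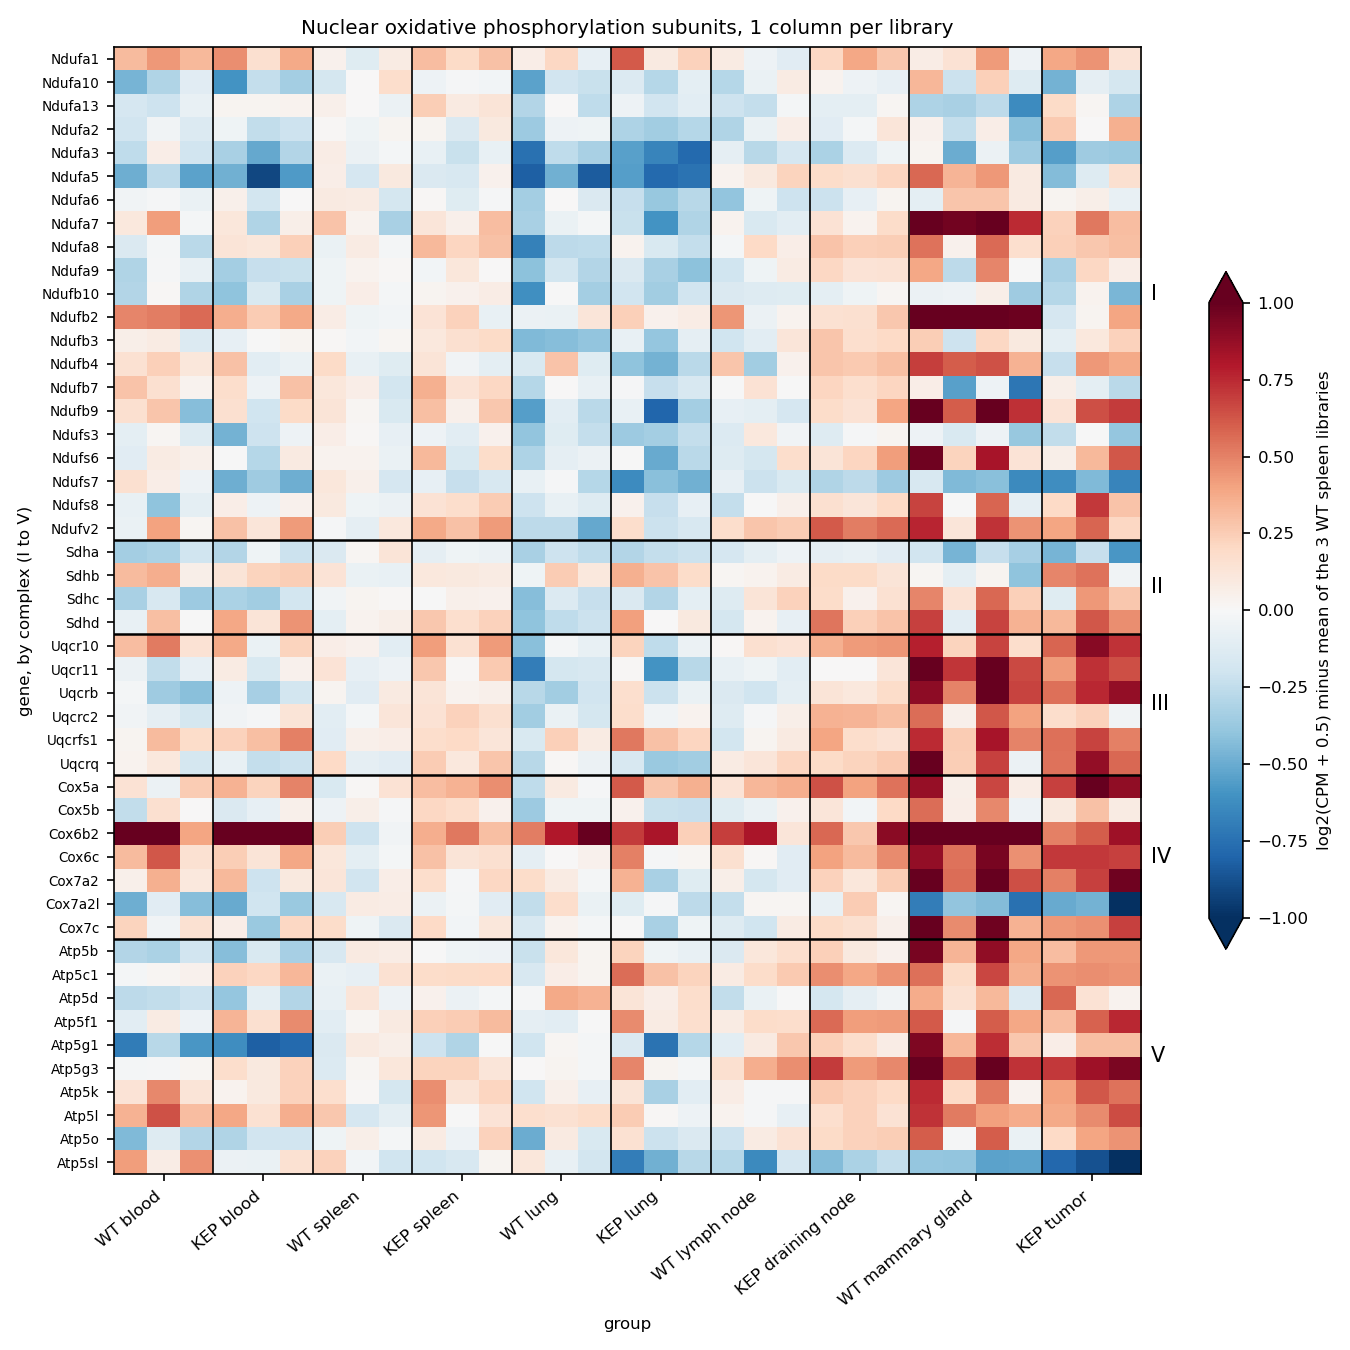
Level of each of the 48 members that passed the filter and were called in at least 1 of the 12 comparisons (rows, by complex) in each of the 31 libraries (columns, by group), as log2(CPM + 0.5) minus the mean of the 3 WT spleen libraries; red is higher and blue lower, and values beyond 1 are drawn at the end of the scale. The lung columns are mostly blue in complex I, and the mammary gland and tumor columns hold many of the deepest colors.

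Several subunits have tissue-specific isoforms, and in the 24 libraries the form known to be ubiquitous was the abundant form. Cox4i1 was at 231 to 289.6 CPM per kb in the 8 group means, against 0 to 0.398 for Cox4i2, the isoform of lung and hypoxic cells. Cox6a1 exceeded Cox6a2, the muscle form, which stayed at or under 0.346 CPM per kb in all 10 groups. Cox6b1 was at 129.7 to 218 CPM per kb over the 10 groups and Cox6b2, the testis form, at 1.04 to 6.46. Cox7a2, with 64.8 to 125.5 CPM per kb over the 10 groups, exceeded the muscle form Cox7a1 (0.225 to 5.32), and Cox7a2l was higher than both at 136 to 222. Cox7b was at 49.2 to 85.3 CPM per kb, whereas Cox7b2 had 1 count in all 24 libraries. Cox8a was at 141.5 to 234 CPM per kb, and Cox8b, known from muscle and brown fat, had 0 counts in the 24 libraries and in tumor and 41 counts in mammary gland. The brown fat markers summed to 6.8 to 15.8 CPM in mammary gland and to 0 in both spleen groups, and their part in the Cox8b counts was not tested.

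Ndufa4l2, a paralog of Ndufa4 known to be induced by hypoxia, separated the solid mammary tissues from the rest. It had 18 counts in all 24 libraries, of which 8 each were in WT and KEP lung and 2 in KEP blood. In mammary gland its counts were 141, 152, 228 and 145, and in tumor 59, 92 and 44. Cox4i2 had 17 counts in the 24 libraries, 34, 39, 73 and 38 in mammary gland and 4, 9 and 12 in tumor. Both genes were thus highest where summed pan-T genes were lowest and smooth muscle markers highest (1615 to 2990 CPM summed in mammary gland, 65.8 to 179 in tumor, at most 2.55 elsewhere), and the part of other cells in their counts was not tested.

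The 3 genes of the c subunit of ATP synthase, Atp5g1, Atp5g2 and Atp5g3, encode the same mature protein behind different import sequences. In the group means Atp5g3 was the highest of the 3 everywhere, at 135 to 266 CPM per kb, Atp5g2 lay at 77.5 to 112, and Atp5g1 at 43.4 to 111. Atp5g2 was called in none of the 12 comparisons between 2 groups, whereas Atp5g1 was called lower in both blood groups and higher in tumor, and Atp5g3 higher in both lymph node groups and in tumor, each against spleen. Atp5g1 was at 26.5, 35.9 and 28.8 CPM in WT blood and 28.1, 24.4 and 25.1 in KEP blood. In spleen it was at 39.2, 46.2 and 45.3 CPM (WT) and 37.6, 35.2 and 43.3 (KEP), so that the blood and spleen libraries did not overlap in the WT, nor in the KEP mice.

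**Figure D2:**
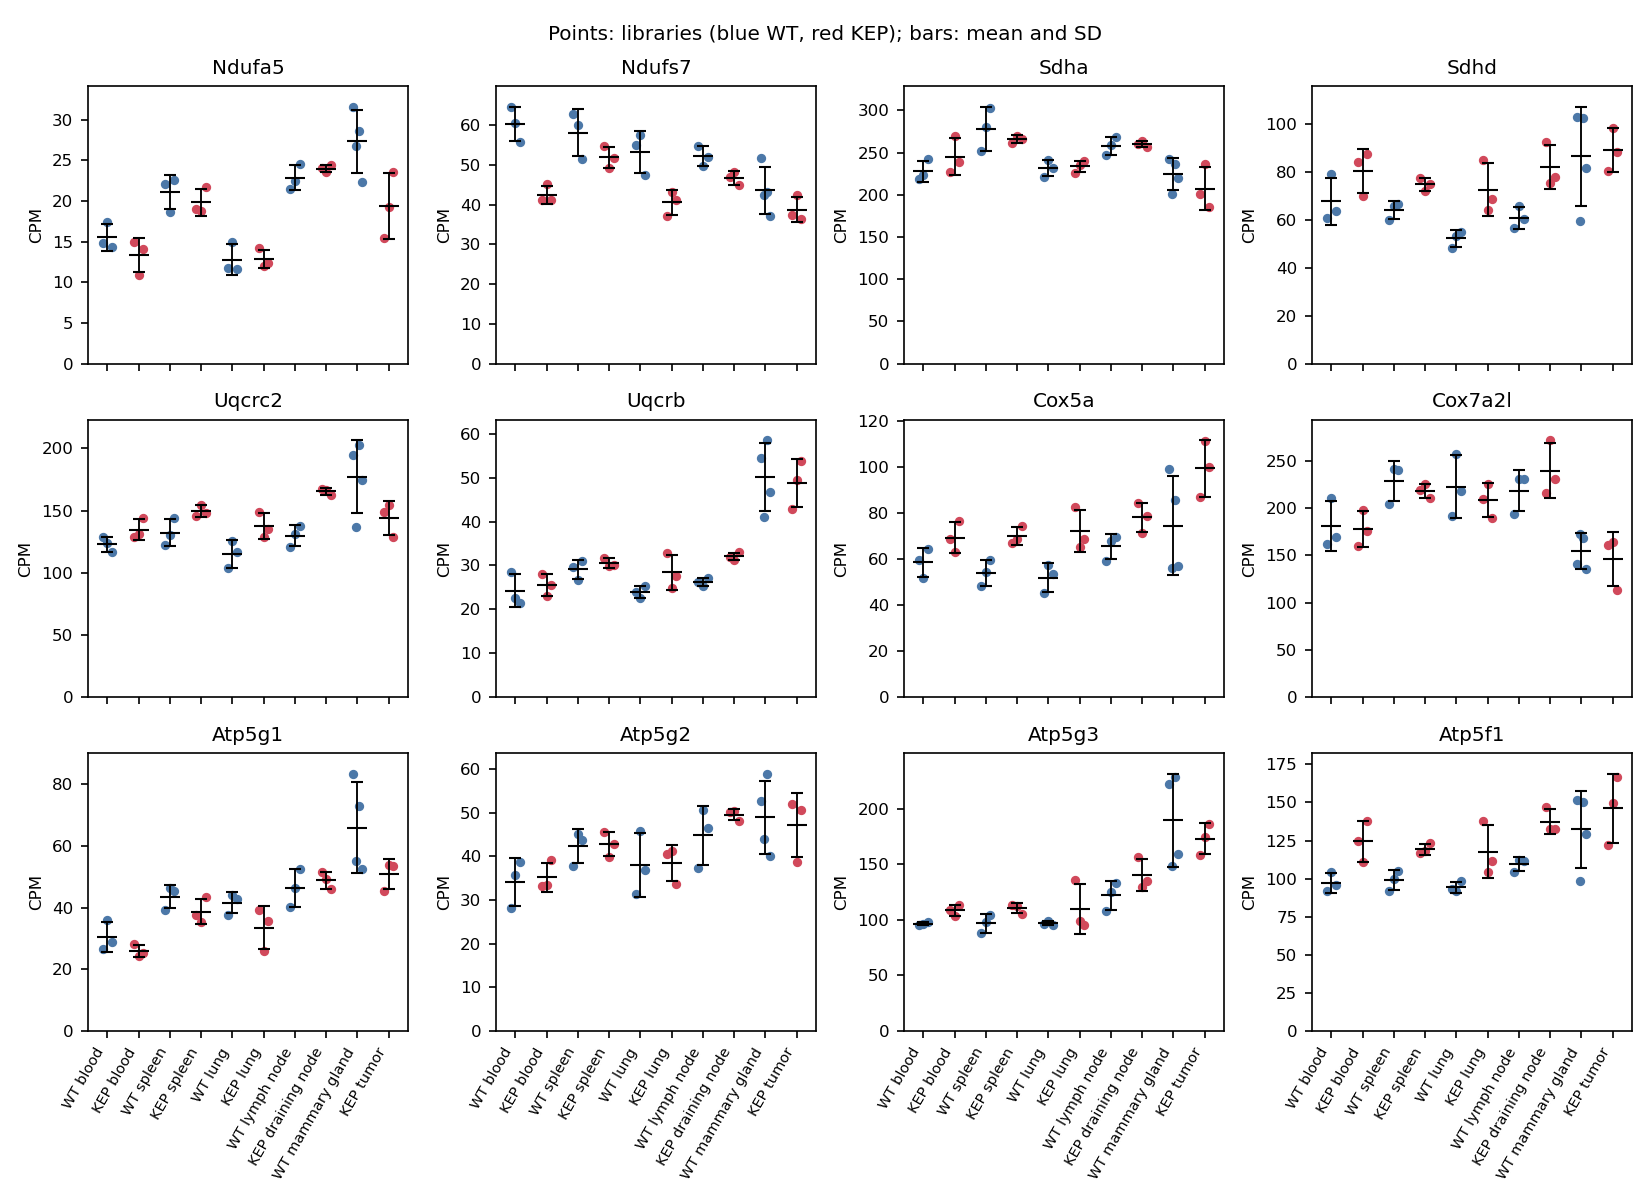
CPM of 12 members in each library (points, blue for WT and red for KEP), with the mean and SD of each group; each panel starts at 0. Ndufa5 is low in the 6 lung libraries, Ndufs7 is lower in KEP than in WT blood and lung, and Atp5g3 is highest in mammary gland and tumor.

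The question put to tumor-bearing mice was whether Tregs outside the tumor differ from those of healthy mice in the same tissue. In blood, 2 of 77 members were called at an adjusted p under 0.05 in edgeR's quasi-likelihood test (20.2% of 12825 genes were called, 9.88% higher and 10.3% lower in KEP), 1 higher and 1 lower. The members' median log2 fold change was -0.05, against -0.01 over all genes tested. Ndufs7 (chr10:80249121-80256794), a core subunit of complex I that carries an iron-sulfur cluster, was at 64.6, 60.5 and 55.8 CPM in WT and 41.2, 45.1 and 41.2 in KEP blood. The groups did not overlap, and the log2 difference was -0.52 ± 0.09 (SE), with an adjusted p of 0.000407. Atp5f1 (chr3:105942698-105960099), a subunit of the peripheral stalk of complex V, was at 91.9, 104 and 95.6 CPM in WT and 125, 111 and 138 in KEP blood, a log2 difference of 0.33 ± 0.09 (adjusted p = 0.0122). The count rose to 6 (5 higher, 1 lower) with length and GC correction, to 5 without WT blood replicate 2, and fell to 1 without KEP blood replicate 3.

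In lung, 7 members were called, 5 higher and 2 lower in KEP (all genes: 19.9%, with 9.61% higher and 10.3% lower). Ndufs7 again was lower, at 54.9, 57.5 and 47.4 CPM in WT and 37.2, 43.3 and 41.2 in KEP lung, a log2 difference of -0.40 ± 0.09 (adjusted p = 0.00438), which with length and GC correction was no longer called (-0.20). The other lower member was Atp5sl (chr7:25619414-25625551), at 52, 45.6 and 42.3 CPM in WT and 29.6, 34.3 and 39.6 in KEP lung (-0.45 ± 0.14, adjusted p = 0.0228). The higher members came from complexes II to V. Sdhd, a membrane anchor of succinate dehydrogenase, was at 48.3, 53.4 and 55 CPM in WT and 85, 64.1 and 68.5 in KEP lung, and these groups did not overlap (0.46 ± 0.12, adjusted p = 0.00628). Uqcrc2 (chr7:120635176-120659478), a core protein of complex III, was at 104, 126 and 117 CPM in WT and 149, 129 and 135 in KEP lung (0.25 ± 0.08, adjusted p = 0.0359). Cox5a (chr9:57521232-57532424), a matrix-facing subunit of complex IV, was at 45.2, 57.2 and 53.5 CPM in WT and 82.7, 65.3 and 68.9 in KEP lung (0.47 ± 0.11, adjusted p = 0.00507). In complex V, Atp5c1 (chr2:10056016-10080510), the rotor gamma subunit, was at 125, 147 and 143 CPM in WT and 207, 172 and 164 in KEP lung (0.38 ± 0.08, adjusted p = 0.00318). Atp5f1 was at 93, 91.7 and 98.4 CPM in WT and 138, 104 and 111 in KEP lung (0.31 ± 0.09, adjusted p = 0.0205). In each of these 5 genes KEP lung replicate 1 was the highest library. That library also had the highest summed proliferation genes, 1503 CPM against 498 and 462.5 in the other KEP lungs, and without it 3 members were called. The part of proliferation in these differences was not tested. Macrophage genes summed to 96.9 to 166 CPM in WT and 38.3 to 79 in KEP lung, which moves with the genotype, and their part was not tested either.

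In spleen no member was called, against 4.26% of all genes (3.3% higher, 0.959% lower). At an unadjusted p under 0.05, 12 were higher and 0 lower (all genes: 10.6% higher). DESeq2 called 2 members and limma-voom 0, with 1 when the title date was a random term, and edgeR called 1 without WT spleen replicate 3. The members' median log2 fold change was 0.12, against 0.00 over all genes, and 54 of 77 lay above 0 (all genes: 49.5%). The libraries did not overlap in 24 members with the KEP libraries higher (14% of all genes) and in 2 with them lower (11.1%). All 8 members of complex III lay above 0, with a median of 0.18. Cox5a had the smallest p, at 48.4, 54.3 and 59.6 CPM in WT and 66.8, 68.6 and 74.5 in KEP spleen (0.37 ± 0.11, adjusted p = 0.0567, named after its value was seen).

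In the draining lymph node, 1 member was called against the WT lymph node, where 1.12% of all genes were called (0.663% higher, 0.452% lower). This was Uqcrc2, at 121, 131 and 138 CPM in WT and 168, 167 and 162 in KEP nodes, a log2 difference of 0.36 ± 0.08 (adjusted p = 0.0269). The call was lost when any of the 6 libraries was left out (0 members) and with length and GC correction (0), and 2 members were called with the title date as a random term. Though few passed the threshold, 73 of the 77 members lay above 0 (all genes: 51.6%), with a median log2 fold change of 0.20 (all genes: 0.01). The number above 0 was 34 of 36 in complex I, 4 of 4 in complex II, 7 of 8 in complex III, 11 of 12 in complex IV and 17 of 17 in complex V. At an unadjusted p under 0.05, 28 were higher and 0 lower (all genes: 8.48% higher, 5.68% lower). The libraries did not overlap in 39 members with the draining node higher (all genes: 12.9%) and in 1 with it lower (11.2%). With length and GC correction 70 members lay above 0, and the median was 0.13. Sdhd was at 56.4, 65.6 and 60.3 CPM in WT and 92.5, 75.4 and 77.9 in KEP nodes, which did not overlap (0.44 ± 0.11, adjusted p = 0.0538). Uqcrh was at 103, 91 and 99.7 CPM in WT and 144, 148 and 143 in KEP nodes, also without overlap (0.57 ± 0.15, adjusted p = 0.0695). Beside these, 3 of the 9 mitochondrially encoded subunits tested lay above 0 (median -0.08), and 63 of 76 mitochondrial ribosome genes did (median 0.15, 1 called). The count table held 12 mitochondrially encoded subunits, whose levels were very unequal. Of the 9 tested, mt-Co2 had means of 0.28 CPM in WT and 0.22 in KEP nodes, and mt-Co1 of 2123 and 2139. The cause of these unequal levels was not tested. Summed proliferation genes were at 1027, 322 and 408 CPM in the draining nodes and 226, 291 and 247 in the WT nodes, and their part in these differences was not tested.

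The KEP effect was then compared across blood, spleen, lung and lymph node in a test of the interaction. No member was called by edgeR, the tool run here (0.304% of all genes were), and none under the 5 other settings or without any of the 24 libraries. At an unadjusted p under 0.05 there were 7 members (all genes: 11.8%), the smallest being Uqcrh at an unadjusted p of 0.0185. The KEP effects given above are thus not shown to differ between the tissues.

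**Figure D3:**
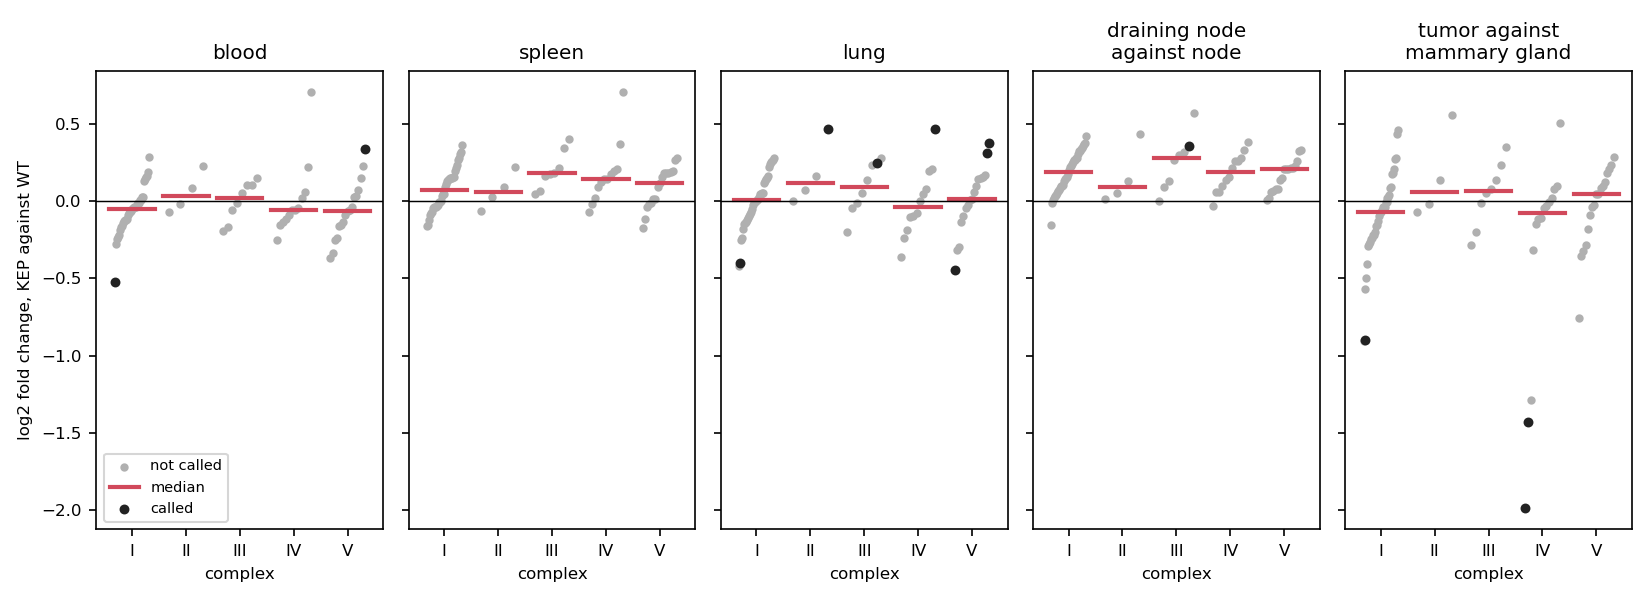
Log2 fold change of each member, KEP against WT, by complex in 5 comparisons (black points were called, grey points not, red lines are medians of each complex). In spleen and draining node most points lie above 0 with 0 and 1 member called, in blood and lung they lie on both sides, and in tumor against mammary gland 3 members were called, all lower.

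Against the spleen of the same genotype, the lung had the most lower members. In WT mice 13 of 77 were called, 2 higher and 11 lower (all genes: 44.9%, with 23.1% higher and 21.8% lower), and their share was below that of all genes in both directions. In KEP mice 25 were called, 0 higher and 25 lower (all genes: 48.1%, with 23.7% higher and 24.4% lower). Median log2 fold changes of the members were -0.12 (WT) and -0.16 (KEP), against -0.01 and -0.03 over all genes. The 8 members lower in both, which are 72.7% of the 11 and 32% of the 25, were Ndufa3, Ndufa5, Ndufa8, Ndufa9, Ndufb3, Ndufb10, Ndufv2 and Sdha. Of these, 7 belong to complex I, and the Sdha call in KEP lung held in 3 of 15 alternatives. The overlap of WT and KEP calls over all genes was not counted, so that of the members is not shown to be larger.

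Complex I, which has 36 of the 77 tested members, held most of the lower calls. In WT lung 8 of 36 were lower (median -0.14), near the 21.8% of all genes. In KEP lung 18 of 36 were lower (median -0.28), against 24.4% of all genes. Ndufa5 (chr6:24518666-24528013), an accessory subunit of the matrix arm, was at 22.1, 18.7 and 22.6 CPM in WT spleen and 11.7, 14.9 and 11.6 in WT lung. In KEP mice it was at 19, 18.7 and 21.7 CPM in spleen and 14.2, 12.1 and 12.4 in lung. Neither pair of groups overlapped, and the log2 differences were -0.73 ± 0.14 (adjusted p = 9.24e-05) and -0.63 ± 0.13 (adjusted p = 0.000333). Ndufa3, a small membrane-arm subunit, was at 48.1, 43.8 and 44.9 CPM in WT spleen and 26.9, 38.2 and 36.2 in WT lung (-0.43 ± 0.12, adjusted p = 0.00402). Ndufa3 in KEP mice was at 43.2, 39 and 43.2 CPM in spleen and 31.2, 28.6 and 26.4 in lung (-0.55 ± 0.12, adjusted p = 0.000403). Ndufb3, another accessory subunit of the membrane arm, was at 26.5, 25.8 and 26.6 CPM in WT spleen and 19.3, 19.5 and 19.9 in WT lung (-0.42 ± 0.10, adjusted p = 0.00177). Ndufa6, whose promoter is printed above, was called in KEP lung (-0.26 ± 0.10, adjusted p = 0.0385, named for its promoter).

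In complex II, 3 of 4 members were lower in WT lung (all genes: 21.8%) and 1 of 4 in KEP lung, the latter near the 24.4% of all genes. Sdha (chr13:74322254-74350280), the flavoprotein that holds the active site of succinate dehydrogenase, was at 251, 281 and 303 CPM in WT spleen and 222, 241 and 232 in WT lung. The log2 difference was -0.26 ± 0.08 (adjusted p = 0.0067). In KEP mice Sdha was at 262, 270.1 and 267 CPM in spleen and 226, 235 and 239.5 in lung (-0.19 ± 0.08, adjusted p = 0.0394), a call that 12 of 15 alternatives lost. Sdhc (chr1:171127165-171150603) was at 61.6, 64.2 and 63.6 CPM in WT spleen and 47, 57.5 and 53.7 in WT lung (-0.26 ± 0.10, adjusted p = 0.0274). Sdhd (chr9:50596338-50603849) was at 59.7, 65.6 and 66.5 CPM in WT spleen and lower in all 3 WT lung libraries given above (-0.29 ± 0.12, adjusted p = 0.0414), a call that 10 of 15 alternatives lost. Sdhb (chr4:140961203-140979193) differed from the other 3 in direction, with 99, 86 and 85.5 CPM in WT spleen and 87.3, 107 and 96.6 in WT lung, and it was not called.

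In complex III, no member was called in WT lung and 3 of 8 were lower in KEP lung (all genes: 24.4%). Uqcrq (chr11:53427922-53430831), a small subunit that binds ubiquinone, was at 33.9, 30.6 and 34.4 CPM in KEP spleen and 25.3, 21.8 and 22.1 in KEP lung (-0.52 ± 0.11, adjusted p = 0.000268). Uqcr11 (chr10:80402997-80406830) was at 37.4, 31.3 and 37.2 CPM in KEP spleen and 31.2, 20.4 and 25.5 in KEP lung (-0.46 ± 0.13, adjusted p = 0.0058, named for its promoter). In complex IV, 1 of 12 members was called in each: Cox6b2 was higher in WT lung, at 0.886, 1.2 and 1.69 CPM against 0.657, 0.343 and 0.448 in WT spleen, where its counts lie under the filter's minimum (1.38 ± 0.51, adjusted p = 0.0281), and Cox5b was lower in KEP lung. In complex V, Atp5d, the delta subunit of the rotor, was higher in WT lung, at 140.3, 184 and 181 CPM against 135, 155 and 137 (0.25 ± 0.10, adjusted p = 0.0356). In KEP lung 2 of 17 members were lower, Atp5k and Atp5sl, the latter grouped here by symbol only.

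The lung counts changed with a joint correction for transcript length and GC content, and these properties were not corrected separately. Tested members had a median length of 763 bases, against 2896 for all genes tested. Among transcripts of up to 1000 bases, the median log2 fold change of KEP lung against KEP spleen was -0.23 over all genes and -0.21 over the 49 members of that length, and in WT mice it was -0.10 and -0.11. Among the 21 members longer than that and up to 2000 bases it was -0.07 in KEP and -0.13 in WT mice, against -0.17 and -0.12 over all genes of that length. The members' medians thus lay near those of all genes in both length ranges in WT mice, and only in the shorter range in KEP mice. With length and GC correction the KEP count was 15 (6 higher, 9 lower; median -0.03) and the WT count 16 (9 higher, 7 lower; median 0.00). Ndufa5 in both, Ndufb3 in WT, and Ndufa3 and Uqcrq in KEP lung were called under every alternative tried. The KEP count was 15 without spleen replicate 1 or 3 and 12 without lung replicate 2. The WT count was 6 without spleen replicate 3, 7 without lung replicate 1 and 8 without lung replicate 3. Macrophage genes summed to 8.52 to 12.5 CPM in WT spleen and 16.4 to 36 in KEP spleen, below both lung groups, and their part in these differences was not tested.

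Related mitochondrial lists were counted in the same libraries. Over all genes 21.8% were called lower and 23.1% higher in WT lung, and 24.4% lower and 23.7% higher in KEP lung. The mitochondrial ribosome, which translates the subunits encoded by mitochondrial DNA, had 47 of 76 genes lower and 0 higher in WT lung (median -0.45) and 62 of 76 lower and 0 higher in KEP lung (median -0.57). Its summed level was 75.6 ± 2.8% (SD, n = 3) of the WT spleen mean in WT lung and 73 ± 4.6% in KEP lung, against 89.7 ± 7.4% and 90.5 ± 5.9% for complex I and 98 and 104% for complex V. With length and GC correction 43 (WT) and 53 (KEP) of the ribosome genes were lower. Complex I assembly factors were lower in 8 of 13 (WT) and 7 of 13 (KEP), those of complexes III and IV in 13 and 14 of 26, those of complexes II and V in 5 and 4 of 5, and citrate cycle enzymes in 5 and 1 of 14. Of the mitochondrially encoded subunits, 1 of 9 was higher in WT lung and none of 9 was called in KEP lung. Mrpl44, a ribosome gene named after its value was seen, fell by 1.74 ± 0.15 (log2) in WT lung (adjusted p = 7.87e-10) and by 1.82 ± 0.15 in KEP lung.

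**Figure D4:**
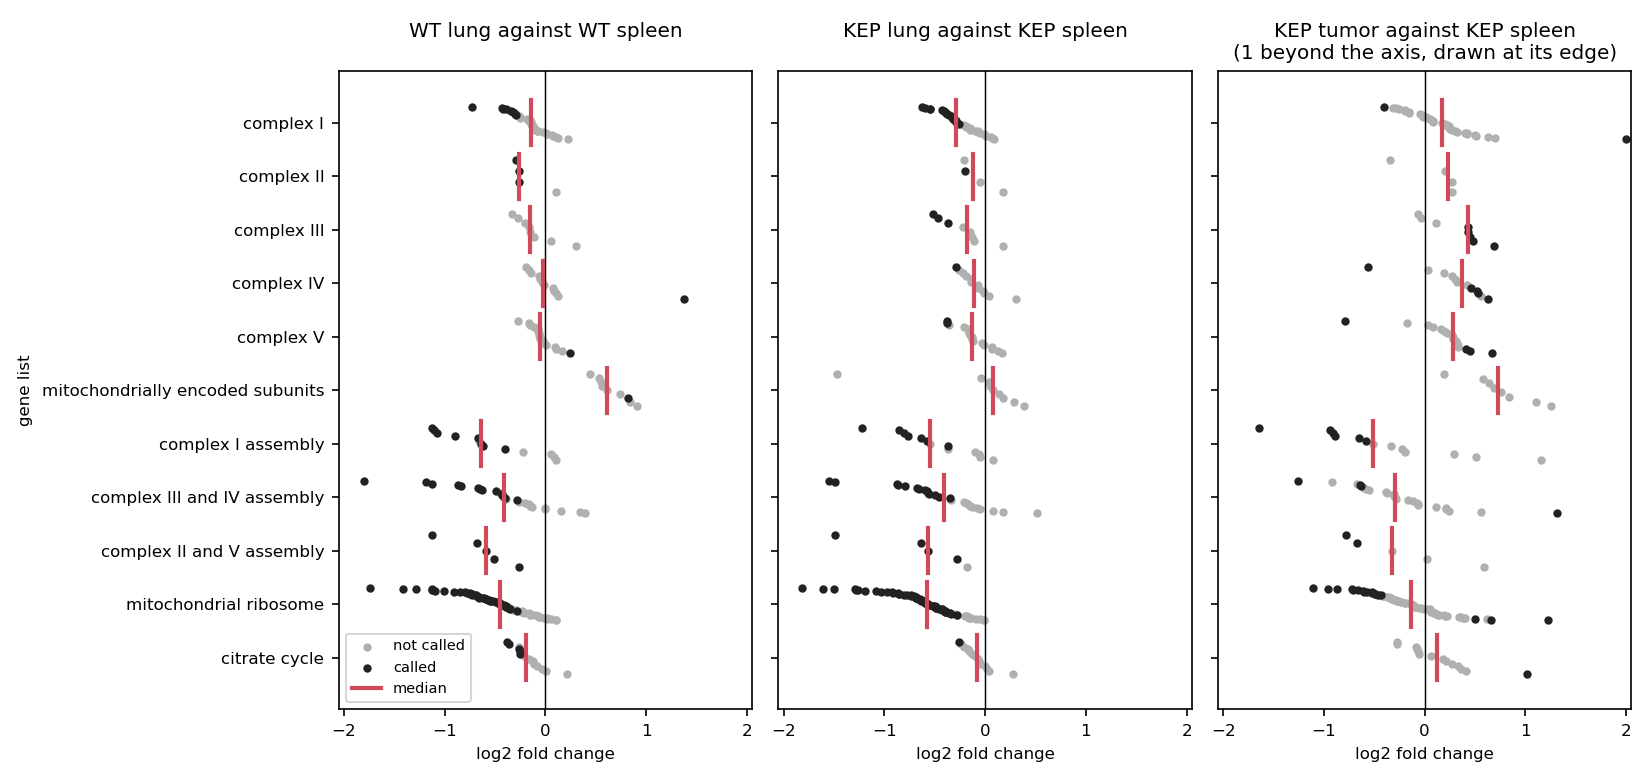
Log2 fold change of each gene of 5 complexes and 6 related lists in WT lung against WT spleen, KEP lung against KEP spleen and KEP tumor against KEP spleen (black points were called, grey points not, red lines are medians; points beyond 2 are drawn at the edge). The mitochondrial ribosome medians (-0.45 and -0.57) lie further left than those of the complexes in both lung panels, and complexes III to V lie to the right of 0 in tumor.

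In blood, members were called both ways in WT mice and mostly lower in KEP mice, each against the spleen of its genotype. In WT, 11 of 77 were called, 6 higher and 5 lower (all genes: 25.5%, with 13.8% higher and 11.8% lower), and 39 of 77 lay above 0 (all genes: 50.9%). In KEP, 11 were called, 1 higher and 10 lower (all genes: 24.6%, with 12.3% higher and 12.2% lower). The KEP lower count was thus near the share of all genes, and the higher count was below it. The KEP libraries did not overlap in 5 members with blood higher (all genes: 22.1%) and in 25 with blood lower (20.5%). With the title date as a block, 22 (10 higher, 12 lower) were called in WT and 20 (1 higher, 19 lower) in KEP. With length and GC correction the WT count was 15 (6 higher, 9 lower). Lower in both were Atp5g1, Ndufa5 and Sdhc, which are 60% of the 5 and 30% of the 10, and Cox6b2 was higher in both. This overlap too was not counted over all genes. For Atp5g1, whose libraries are given above, the log2 differences were -0.52 ± 0.14 in WT (adjusted p = 0.00666) and -0.60 ± 0.14 in KEP blood (adjusted p = 0.00222). Ndufa5 was at 14.9, 17.4 and 14.3 CPM in WT blood and 14.9, 10.9 and 14.1 in KEP blood, under all its spleen libraries (-0.44 ± 0.13 and -0.59 ± 0.13, adjusted p = 0.0164 and 0.00187). Sdhc was at 50.3, 56.4 and 49.1 CPM in WT blood and 50.7, 49.5 and 55.5 in KEP blood, likewise under its spleen libraries (-0.28 ± 0.09 and -0.32 ± 0.09, adjusted p = 0.032 and 0.0127).

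Among the other members called in WT blood, Sdha was lower, at 219, 223 and 242 CPM (-0.28 ± 0.08, adjusted p = 0.00867), and Sdhb higher, at 112, 116 and 93.7 (0.26 ± 0.09, adjusted p = 0.0268). The Sdhb call was lost in 7 of 15 alternatives. Ndufb2, a membrane-arm subunit, was at 15, 15.2 and 15.8 CPM in WT blood against 11.1, 10.2 and 10.3 in WT spleen (0.55 ± 0.14, adjusted p = 0.00456). Atp5l, which helps ATP synthase to form dimers, was at 24.2, 29.8 and 23.5 CPM against 22.9, 16.8 and 17.7 (0.44 ± 0.13, adjusted p = 0.0148). In KEP blood, Uqcrq was at 26.8, 23.9 and 24.4 CPM, below its 3 KEP spleen libraries (-0.41 ± 0.11, adjusted p = 0.0063). The WT count was 18 without spleen replicate 1, 4 without spleen replicate 2 or 3 and 7 without blood replicate 1. The KEP count was 7 without any 1 of the 3 spleens, 4 without blood replicate 1 and 6 without blood replicate 3. Hemoglobin and other red cell genes summed to 1943 to 7964 CPM in WT blood and 25.8 to 256 in WT spleen, and to 1966 to 4376 and 70.2 to 549 in KEP mice, and their part in these differences was not tested. Mitochondrially encoded subunits were called higher in 4 of 9 (WT, median 0.87) and 3 of 9 (KEP, median 0.69), against 13.8% and 12.3% of all genes. Mitochondrial ribosome genes were lower in 12 (WT) and 24 (KEP) of 76, against 11.8% and 12.2% of all genes.

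Few members were called between lymph node and spleen. In WT mice Atp5g3 (chr2:73908447-73911326) was the 1 member called (all genes: 8.97%, with 4.56% higher and 4.41% lower), at 87.9, 98.2 and 105 CPM in spleen and 108, 125 and 133 in lymph node, without overlap (0.34 ± 0.11, adjusted p = 0.0419). Its call was lost without spleen replicate 1 or 2 and without node replicate 2 or 3. No member was then called, except that without node replicate 2 another member, of complex IV, was called lower, and 4 were called with the date as a block (2 higher, 2 lower). In KEP mice 2 members were called, both higher in the draining node (all genes: 11.1%, with 5.35% higher and 5.72% lower). Atp5g3 was at 113, 113 and 105 CPM in spleen and 157, 129.7 and 135 in the node (0.36 ± 0.10, adjusted p = 0.024). Atp5c1 was at 159, 160 and 161 CPM in spleen and 194, 184 and 192 in the node (0.26 ± 0.08, adjusted p = 0.0454). Neither was called without any 1 of the 3 spleens or without node replicate 1, 1 was called without node replicate 2 or 3, and 6 were called with the date as a block (5 higher, 1 lower).

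**Figure D5:**
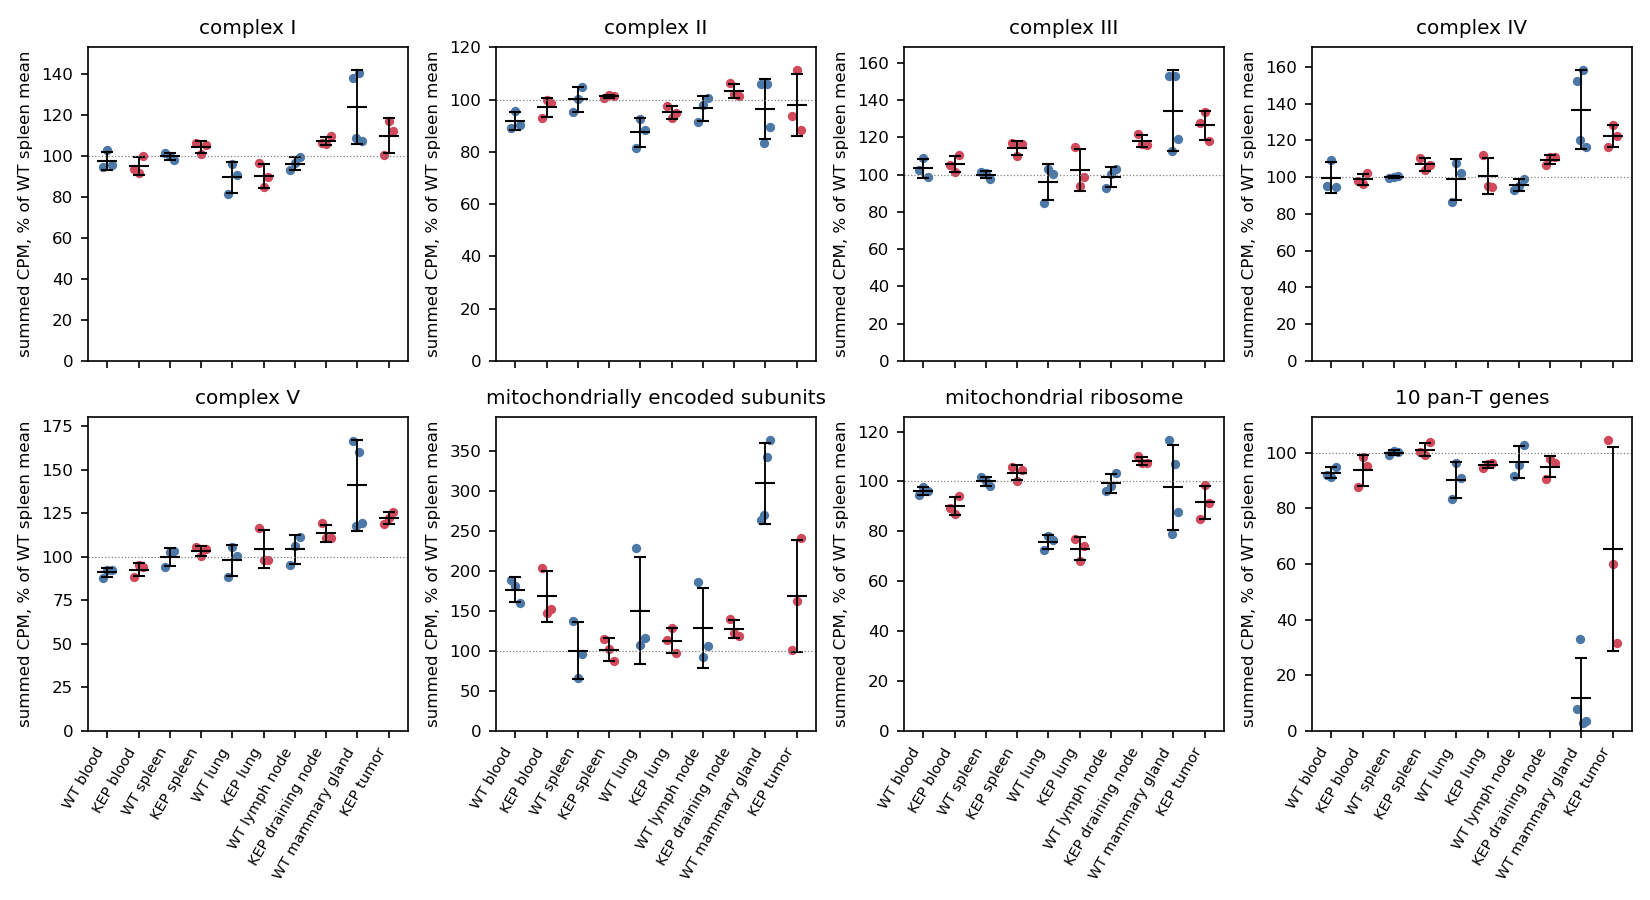
Summed CPM of the members of each complex, of the mitochondrially encoded subunits, of the mitochondrial ribosome and of 10 pan-T genes, as percent of the WT spleen mean (points are libraries, blue WT and red KEP, with mean and SD). Complexes stay near 100% outside mammary gland and tumor, the mitochondrial ribosome stands at 75.6% and 73% in lung, and the pan-T genes fall to 11.9% in mammary gland and 65.4% in tumor.

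Tumor-infiltrating Tregs could be set against 2 references, the spleen of tumor-bearing mice and the WT mammary gland. Against KEP spleen, 16 of 78 members were called, 13 higher and 3 lower (all genes: 46.8%, with 26.9% higher and 19.9% lower). The median log2 fold change was 0.24, or 0.24 with Ndufa4l2 at its lower bound, against 0.04 over all genes. Complex III had 5 of 8 higher (median 0.43), complex IV 4 of 12 higher and 1 lower (0.37), complex V 3 of 17 higher and 1 lower (0.28), complex I 1 of 37 higher and 1 lower, and complex II none of 4. The lower members counted under complexes IV and V were Cox7a2l and Atp5sl, which are grouped there by symbol and are not subunits proper.

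The called members of the later complexes included catalytic and structural parts. Uqcrb (chr13:66900617-66905378), a small subunit at the ubiquinone site of complex III, was at 31.7, 29.8 and 30.1 CPM in KEP spleen and 42.9, 49.4 and 53.8 in tumor, without overlap (0.69 ± 0.13, adjusted p = 0.00758). Uqcrfs1 was at 64.6, 65.8 and 62.2 CPM in spleen and 84, 91.4 and 81.2 in tumor (0.43 ± 0.10, adjusted p = 0.0134). Uqcr11 was at 41.9, 51.8 and 48.9 CPM in tumor, above its 3 KEP spleen libraries (0.45 ± 0.14, adjusted p = 0.0367). In complex IV, Cox5a was at 86.8, 111 and 99.9 CPM in tumor, also above its spleen libraries (0.52 ± 0.12, adjusted p = 0.0159), and Cox7a2 at 50.7, 44.6 and 52.1 in spleen and 63.8, 72.7 and 88.9 in tumor (0.63 ± 0.16, adjusted p = 0.0202). In complex V, Atp5g3 was at 158, 174 and 186 CPM in tumor (0.67 ± 0.11, adjusted p = 0.00589). Atp5b was at 666, 648 and 646 CPM in spleen and 827, 905 and 904 in tumor, again without overlap (log2 difference 0.45). Ndufa4l2 (chr10:127514939-127517152) had 0 counts in KEP spleen and 195 in tumor, and so was at least 77-fold higher, taking 3 counts over the spleen group as the floor. It passed the filter only through the tumor libraries, where it is high, so this is a description, and without it 12 members were higher and none of them was of complex I.

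Lower in tumor were Atp5sl, at 41.8, 43 and 48.9 CPM in spleen and 27.7, 26.1 and 22.6 in tumor (-0.79 ± 0.14, adjusted p = 0.00621), and Ndufs7, at 54.8, 49.4 and 51.6 in spleen and 37.5, 42.4 and 36.4 in tumor (-0.40 ± 0.11, adjusted p = 0.027). Cox7a2l (chr17:83501919-83514333) was at 219, 225 and 210 CPM in spleen and 160.3, 164 and 113 in tumor (-0.56 ± 0.17, adjusted p = 0.0336). Scaled by pan-T genes instead, all 78 members lay above 0, these 3 included (0.09 for Atp5sl, 0.52 for Ndufs7 and 0.28 for Cox7a2l), the median of all genes was 0.96, and 7 members were called, all higher. The count was 39 (38 higher, 1 lower) with length and GC correction and 7 (6 higher, 1 lower) with the date as a block. It was 6, 4 and 4 without spleen replicates 1, 2 and 3, 35 without tumor replicate 1 and 10 without tumor replicate 2. Macrophage genes summed to 728, 5058 and 1081 CPM in the tumor libraries against 16.4 to 36 in KEP spleen, and their part in these differences was not tested.

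Electron carriers and subunits with other symbols were higher in tumor in 6 of 7, such as Cycs, which encodes cytochrome c (0.98 ± 0.13, adjusted p = 0.00316, named after its value was seen). The mitochondrially encoded subunits all lay above 0 (8 of 8, median 0.72) with none called by edgeR. Complex I assembly factors were lower in 6 of 13, and mitochondrial ribosome genes lower in 15 and higher in 3 of 76. Over all genes 26.9% were higher and 19.9% lower, so the lower count of ribosome genes was near the share of all genes.

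Against WT mammary gland, 3 of 80 members were called, all lower in tumor (all genes: 25.2%, with 11.2% higher and 14% lower), and the median was -0.04 against -0.01 over all genes. The libraries did not overlap in 9 members with tumor lower (all genes: 25.7%) and in 0 with tumor higher (14%). Ndufb2 was at 23.1, 22.4, 23.9 and 21.2 CPM in mammary gland and 9.33, 10.8 and 14 in tumor (-0.90 ± 0.20, adjusted p = 0.02). Cox4i2 was at 2.57, 3.37, 4.77 and 2.62 CPM in mammary gland and 0.393, 0.8 and 1.16 in tumor (a log2 difference of -1.99 ± 0.47). It passed the filter through the mammary gland libraries, where it is high, so its call is a description. Cox6b2 was at 2.95, 2.59, 3.66 and 2.82 CPM in mammary gland and 0.883, 0.978 and 1.25 in tumor (-1.43 ± 0.32). Its tumor counts were 9, 11 and 13, with replicate 1 under the filter's minimum. It too passed only through the mammary gland libraries, so its call is also a description. Apart from Cox4i2 and Cox6b2, the 1 member called was Ndufb2. The count was 1 without gland replicate 1 or tumor replicate 1, 0 without gland replicate 3 or tumor replicate 2, and 6 without tumor replicate 3. Scaled by pan-T genes, which were at 11.9 ± 14.4% of the WT spleen mean in gland (SD, n = 4), all 80 members were lower, and so was the median of all genes (-3.42). With length and GC correction 8 were called (1 higher, 7 lower). With so little T cell RNA in the gland libraries, a difference within Tregs and a difference in the cells present cannot be told apart here.

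Over the 12 comparisons of 2 groups, 50 members were called at least once, of which 48 had passed the filter of the 24-library fit. The same share over all genes was not counted, so this does not set the members apart from other genes. The remaining 29 of the 77 members in that fit were never called. Those never called included the core complex I genes Ndufs1 and Ndufv1, Uqcrc1, Cox4i1, Cox6a1, Cox6b1, Cox8a and Atp5a1, the alpha subunit of ATP synthase, named after the results were seen.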

How the data were processed

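Live CD4+ CD25+ T cells were profiled by RNA sequencing in 31 libraries. The deposited file holds raw read counts, whole numbers per Ensembl gene and library, which the authors obtained with TopHat2 2.1.0, TopHat and HTSeq on GRCm38, per the submitters' processing notes. The strand setting and the annotation are not given in the sources used here. Reads shared with an overlapping gene or a near-identical copy can therefore not be separated. Exons overlap another gene on the same strand in 5 members and on the opposite strand in 26, and values are uncertain for these. Among them are Ndufb2, Ndufa3, Ndufa9, Ndufb9, Ndufs1, Uqcrc2, Uqcrb, Cox4i1, Cox5a, Cox6a2, Cox6c, Atp5a1, Atp5d, Atp5f1, Atp5l and Ndufa4l2. Values are also uncertain for Atp5g1, Atp5g2 and Atp5g3, which are alike in sequence. Per the labels' protocols, collagenase A was used on tumors and Liberase on lungs, and no digestion is stated for the other tissues.

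The members and gene lists were chosen with earlier results of these data known. Tests used edgeR 4.0.16 (R 4.3.3), quasi-likelihood with robust dispersion, TMM factors and filterByExpr at a minimum count of 10, with Benjamini-Hochberg adjustment over all genes tested and calls at an adjusted p under 0.05. A single fit of 24 libraries in 8 groups (12825 genes) gave the comparisons in blood, spleen, lung and node. Tumor against mammary gland (14538 genes) and tumor against KEP spleen (12927 genes) were fitted on their own libraries. Log2 fold changes carry SE, levels are CPM. Genes described by library were set by a rule: all Sdh genes, up to 3 higher and 3 lower called members of smallest p per comparison, the highest and lowest per kilobase in each complex, and paralog families. Other genes are said to be chosen after their values were seen. Lengths and coordinates came from GENCODE M21 (GRCm38). Replicates of the 4 tissues outside mammary gland and tumor differed beyond counting error (chi-square over degrees of freedom from 4.67 to 17.5), and none was a duplicate. No count share is given with an interval.

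Replicate numbers follow the title dates. Deviations of same-date KEP libraries correlated above 0.1 in 18 of 18 pairs (median 0.27), those of WT libraries in 7 of 18 and pairs with mammary gland or tumor in 1 of 24. The labels do not say that tissues share mice. The main fits held no date term and so ignored this correlation, and the dates entered as pairing only in the alternatives. Alternatives were RLE factors, no filter, a minimum count of 50, all 31 libraries, only the libraries compared, a length and GC correction (splines with 5 degrees of freedom, 99.4% of genes), pan-T scaling for tumor, limma-voom (limma 3.58.1), DESeq2 1.42.0, the date as a block and leaving out each library. The test was checked on simulated counts.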

Additional observations from a re-analysis of the deposited data

How the results depend on the processing

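Counts of called members changed with the settings more than directions did: of 112 alternative counts with all libraries kept, 73 were within 1.5 times the reported count, and of 61 named calls 14 held under every alternative run for them. With all 31 libraries in a single fit the count was 1 (KEP against WT blood), 2 (KEP against WT lung), 0 (draining node against WT node), 3 (WT blood against spleen), 8 (WT lung), 0 (WT node), 3 (KEP blood), 12 (KEP lung), 0 (draining node against spleen), 21 (tumor against mammary gland) and 26 (tumor against spleen). With length and GC correction it was 6 (KEP against WT blood), 0 (draining node against WT node), 15 (KEP lung), 8 (tumor against gland) and 39 (tumor against spleen). Without a filter it was 2 (KEP against WT spleen), 6 (draining node against WT node) and 2 (WT node against spleen). On the compared libraries alone it was 2 (KEP against WT spleen), 7 (draining node against WT node), 5 (WT blood against spleen) and 5 (draining node against spleen), and with RLE factors 1 in the last. DESeq2 gave 4 (KEP against WT blood), 2 (KEP against WT spleen), 5 (draining node against WT node), 2 (WT node against spleen), 5 (tumor against gland) and 28 (tumor against spleen). The cause of these changes was not tested.

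With the replicate block, that is the title date, the count was 22 (WT blood against spleen), 4 (WT node), 20 (KEP blood), 6 (draining node against spleen) and 7 (tumor against spleen). As a random term in limma-voom the block gave 1 (KEP against WT spleen) and 2 (draining node against WT node), and it moved no other count by over 1.5 times. Tumor and mammary gland shared no date, so no paired fit was made for them.

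Pan-T scaling gave 80 (tumor against gland) and 7 (tumor against spleen), and it reversed Ndufs7 (0.52), Cox7a2l (0.28) and Atp5sl (0.092) in tumor against spleen. Leaving out each library in turn gave 1 to 5 (KEP against WT blood), 0 to 1 (spleen), 3 to 10 (lung) and 0 to 0 (nodes), 4 to 18 (WT blood against spleen), 6 to 17 (WT lung), 0 to 1 (WT node), 4 to 11 (KEP blood), 12 to 25 (KEP lung), 0 to 1 (draining node against spleen), 0 to 0 (interaction), 0 to 6 (tumor against gland) and 4 to 35 (tumor against spleen). Depth limits Cox6b2, with 301 counts over 24 libraries, and the 6 members that failed the filter.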

Other observations

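In each of the 4 WT tissues outside the mammary gland, replicate 1 had the lowest share of counts from the members: 0.612% in spleen, 0.597% in lymph node, 0.474% in lung and 0.56% in blood. The same libraries had the highest share from mitochondrially encoded subunits in their groups, at 0.712%, 0.98%, 1.05% and 0.947%. These replicates carry the same title date. The mammary gland library of that date went the other way, with the highest member share of its group (0.956%). Its share from mitochondrially encoded subunits (1.387%) was not the highest of its group. The difference was noticed after the values were seen and was not tested.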
